A study of Rattus norvegicus with 2 samples.

Results

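The genes described here are Atf4 and 9 genes tied to it in amino acid stress, namely Phgdh, Psat1, Psph, Shmt2, Asns, Ddit3, Trib3, Chac1 and Ddit4. They were taken by name, as the transcript clusters whose single gene symbol in the array annotation is one of the 10. Each of the 10 genes had exactly 1 cluster, and they stand among 22093 genes with a symbol. RNA from the urinary bladder of male F344 rats was hybridised to 2 arrays. The DMA array held the pooled RNA of 7 rats given 200 ppm dimethylarsinic acid (DMA), a methylated metabolite of arsenic, in drinking water for 4 weeks. The control array held the pooled RNA of 7 rats given 0 ppm over the same time, and the labels give an age of 10 weeks for either group. The comparison asked which transcripts differ in the bladder early in exposure to a compound that causes urothelial carcinoma in rats. The labels name the urinary bladder, whereas the methods describe epithelial cells loosened from inverted bladders of rats that were older at the start, so the tissue share of each pool is not settled.

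There is 1 array per group, so no spread between replicates exists, and no difference below has an error or a p-value. Pooling 7 rats averages over animals and hides their spread. Signals are linear intensities after RMA, a background correction and summary of probes, and ratios are those of the DMA pool over the control pool. Genes reaching a signal of 100 in one pool or the other are called measured. These were 11718 of all genes and 7 of the 10 described here. Phgdh, Trib3 and Chac1 stayed under that minimum in both pools, and their values are given as those of dim clusters. Over all 68842 clusters the median signal was 53.2 in the DMA pool and 49.7 in the control pool.

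ATF4 is a bZIP transcription factor that cells make when the initiation factor eIF2 is phosphorylated by kinases sensing amino acid shortage, unfolded protein in the endoplasmic reticulum, haem deficit or double-stranded RNA. Its protein is set largely by translation of its mRNA through upstream reading frames, so the mRNA level measured by an array is only part of its control. ATF4 induces enzymes that make serine, glycine and asparagine, amino acid transporters and tRNA synthetases, and, when stress lasts, the factors CHOP and TRIB3. Arsenite is known to activate this response in cultured cells.

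None of the 10 genes differed by 2-fold or even 1.5-fold between the pools. The largest ratio was that of Psph at 1.30 and the smallest that of Ddit4 at 0.84. The 3 enzymes that make serine from a glycolytic intermediate had the 3 highest log2 ratios, between 0.35 and 0.37, although after quantile normalization Atf4 (0.279) lay just above Phgdh (0.276). Of the 4 stress effectors, Trib3 had a log2 ratio of 0.19, and Ddit3, Chac1 and Ddit4 were below 0, except that quantile normalization put Ddit3 at 0.02. The methods of the study ask for a 2-fold difference in either direction together with a Z score beyond 2 or -2. At these thresholds 0 members were higher and 0 were lower, where 0.375% of all measured genes were higher and 1.42% lower. The Z score used here places the log2 ratio of a gene among the 500 genes nearest in mean signal and says nothing of the spread between rats. It can differ from that of the study, which was taken from probe signals after global median scaling and removal of those under 100. The fold threshold alone, without a Z score, gave the same counts for the members and for all measured genes. At 1.5-fold the members also gave 0 in either direction, beside 1.3% of measured genes higher and 5.48% lower. Among the 7 measured members 5 had a log2 ratio above 0, as did 41.1% of all measured genes, and the median was 0.14 against -0.04 over all measured genes. Psat1, 1 of these 5, reached the signal minimum in the DMA pool alone. With both signals required to reach 100, the median of the remaining 6 members was 0.11, beside -0.04 over all genes so filtered. Over all 10 members with no signal minimum, 7 were above 0 and the median was 0.16, beside 0.03 over all 22093 genes. The share of 41.1% holds for measured genes alone and is not the one to set beside these 7, since the median of all 22093 genes was above 0.

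**Figure D1:**
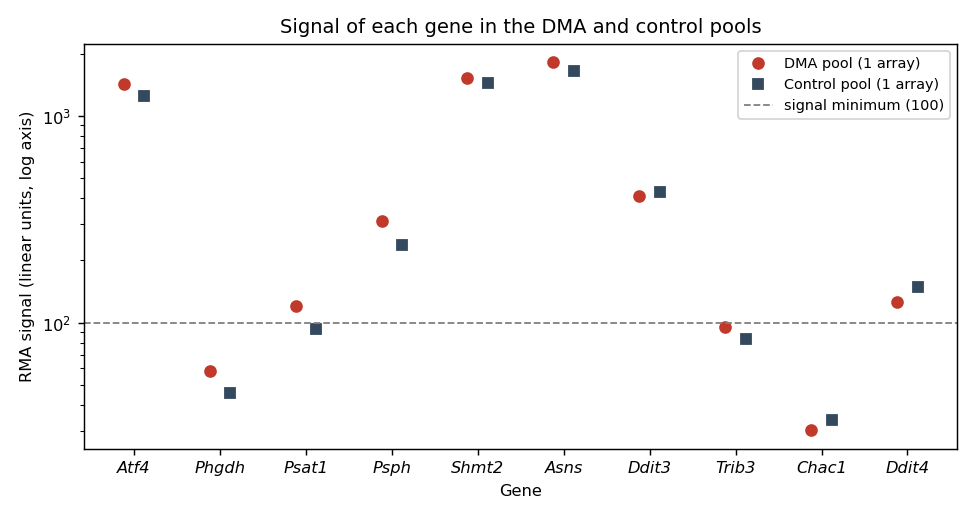
RMA signal (linear units on a log axis) of each of the 10 genes in the DMA pool (circles) and the control pool (squares), 1 array each, with the signal minimum of 100 as a dashed line. The paired points lie close together for every gene, and Phgdh, Trib3 and Chac1 stay under the line in both pools.

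Atf4 itself gave a signal of 1429 in the DMA pool, against 1256 in the control pool (cluster TC0700004036.rn.1). The log2 ratio was 0.19, a ratio of 1.14, with a Z score of 0.79. Of the measured genes 11.4% had a higher ratio. The array reads Atf4 mRNA alone, and ATF4 protein and its translation were not measured.

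The 3 steps of the phosphorylated pathway of serine synthesis are carried out by phosphoglycerate dehydrogenase (Phgdh), phosphoserine aminotransferase (Psat1) and phosphoserine phosphatase (Psph). Phgdh, the entry step, gave 58.0 in the DMA pool and 45.4 in the control pool (cluster TC0200004288.rn.1), a log2 ratio of 0.35 at a signal under the minimum. Psat1 gave 120 in the DMA pool and 93.1 in the control pool (cluster TC0100007349.rn.1), a log2 ratio of 0.37. Its signal reached the minimum of 100 in the DMA pool alone. Psph, which releases free serine, gave 309 in the DMA pool and 238 in the control pool (cluster TC1200000519.rn.1), a log2 ratio of 0.37.

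The 3 enzymes were thus alike in ratio, and of all measured genes 3.65% had a log2 ratio at or above that of Phgdh. Their Z scores were 1.32 for Phgdh, 1.403 for Psat1 and 1.28 for Psph. The ratio of Psph exceeded that of 97.4% of the 500 measured genes nearest to it in signal, and that of Psat1 exceeded 94.2% of its own neighbours. For Phgdh the neighbours were taken from all genes, since it was dim, and 91.6% of them had a lower ratio. The mean log2 ratio of those neighbours was 0.07, where that around Psph was -0.09, so dim genes leaned towards the DMA pool. With a loess curve of ratio on signal subtracted, Phgdh was at 0.28. The ratio of Phgdh rests on a difference of 12.6 signal units.

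**Figure D2:**
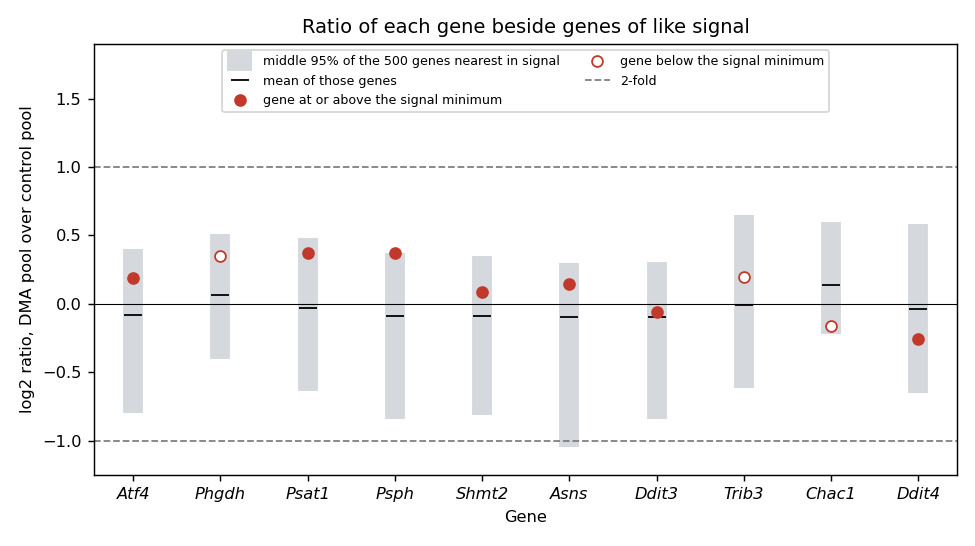
Log2 ratio of the DMA pool over the control pool for each gene (filled circles at or above the signal minimum, open circles below it), with the middle 95% (grey bars) and the mean (black ticks) of the 500 genes nearest in signal (measured genes, or all genes for the open circles), and 2-fold as dashed lines. Psph at 0.37 touches the top of its bar, Chac1 at -0.16 lies near the bottom of its bar, and no gene reaches a dashed line.

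Promoter windows of the serine enzymes are shown because these 3 genes had the highest ratios as deposited, and they run from 250 bases before to 50 bases after the gene start in RefSeq (GRCr8 build). All 10 genes matched a window. Each was searched on both strands for the C/EBP-ATF response element, the composite site that ATF4 binds with a C/EBP partner, written as TGATGNAA. The windows of Phgdh, Psat1 and Psph held no match, which says only that these letters are not in these windows.
Phgdh promoter, GRCr8 chr2:188624740-188625039 (- strand): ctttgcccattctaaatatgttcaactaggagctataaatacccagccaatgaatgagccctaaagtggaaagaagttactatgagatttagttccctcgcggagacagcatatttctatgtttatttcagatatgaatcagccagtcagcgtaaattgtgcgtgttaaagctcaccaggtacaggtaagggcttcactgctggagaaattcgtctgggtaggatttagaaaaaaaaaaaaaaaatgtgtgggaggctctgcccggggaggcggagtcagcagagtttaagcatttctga
Psat1 promoter, GRCr8 chr1:222645359-222645658 (- strand): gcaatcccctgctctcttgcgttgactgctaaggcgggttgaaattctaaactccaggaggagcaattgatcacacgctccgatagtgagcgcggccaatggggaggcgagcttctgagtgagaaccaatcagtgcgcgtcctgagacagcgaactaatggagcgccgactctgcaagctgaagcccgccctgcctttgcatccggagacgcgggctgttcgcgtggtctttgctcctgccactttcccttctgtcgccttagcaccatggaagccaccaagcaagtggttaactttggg
Psph promoter, GRCr8 chr12:32526841-32527140 (+ strand): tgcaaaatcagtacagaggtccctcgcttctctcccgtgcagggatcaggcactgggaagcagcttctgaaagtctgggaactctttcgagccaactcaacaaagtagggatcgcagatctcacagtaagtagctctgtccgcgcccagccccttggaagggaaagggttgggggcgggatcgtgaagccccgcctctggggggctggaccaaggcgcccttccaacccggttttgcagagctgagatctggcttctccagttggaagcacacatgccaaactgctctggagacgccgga

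Shmt2 and Asns act elsewhere in the synthesis of amino acids. Shmt2, the mitochondrial hydroxymethyltransferase that turns serine into glycine and a folate-bound carbon unit, gave 1524 in the DMA pool and 1437 in the control pool (cluster TC0700002923.rn.1). Its log2 ratio was 0.09, with a Z score of 0.52. Asns, the asparagine synthetase that is a textbook target of ATF4 on amino acid shortage, gave 1818 in the DMA pool and 1648 in the control pool (cluster TC0400002436.rn.1). Its log2 ratio was 0.14, with a Z score of 0.73, and 84.0% of measured genes had a lower ratio. All 5 biosynthetic enzymes, the dim Phgdh included, therefore had log2 ratios above 0, from 0.09 to 0.37. Of all measured genes 41.1% were above 0. That share leaves out dim genes such as Phgdh, and with no signal minimum the median over all 22093 genes was 0.03.

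The effectors of lasting stress had a median log2 ratio of -0.11, with 1 of 4 above 0 and 3 below (2 below after quantile normalization). Of these, Trib3 and Chac1 were dim. Over all measured genes the median was -0.04, with 6902 of 11718 below 0. It was 0.03 over all genes with no signal minimum. Ddit3 encodes CHOP, a bZIP factor that promotes cell death when stress in the endoplasmic reticulum is not relieved. It gave 411 in the DMA pool and 429 in the control pool (cluster TC0700000893.rn.1), a log2 ratio of -0.06, and 46.2% of the measured genes nearest in signal had a lower one. Ddit4, or REDD1, an inhibitor of mTORC1 that also responds to hypoxia and glucocorticoids, gave 125 in the DMA pool and 149 in the control pool (cluster TC2000001519.rn.1). Its log2 ratio of -0.26 was the lowest of the 10 genes, with a Z score of -0.74, and 17.9% of measured genes had a lower ratio.

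Trib3 and Chac1 are induced by ATF4 and CHOP together in many cells. Trib3, a pseudokinase that binds AKT and restrains ATF4 itself, gave 95.1 in the DMA pool and 83.1 in the control pool (cluster TC0300004470.rn.1), a log2 ratio of 0.19. Chac1, an enzyme that breaks down glutathione, gave 30.1 in the DMA pool and 33.6 in the control pool (cluster TC0300001511.rn.1), a log2 ratio of -0.16. Both were under the signal minimum in both pools. Of all genes, the 500 nearest to Chac1 in signal averaged a log2 ratio of 0.13, and 4.6% of them had a lower ratio, so its place among dim genes was lower than the ratio alone shows. That place rests on a difference of -3.56 signal units, DMA pool minus control pool.

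The promoter windows of Trib3 and Chac1 are shown because they were the only windows among the 10 with a match to the response element, which capitals mark. The match lies on the reverse strand of either window and starts 21 bases before the gene start in Trib3 and 167 bases before it in Chac1. A match occurred in 3.98% of all 33469 promoter windows. The Chac1 match reads TTGCATCA, a form present in 0.795% of windows, and the Trib3 match reads TTACATCA. The cAMP response element TGACGTCA, found in 1.83% of windows, matched 0 of the 10. A match is a description of the letters and was not tested for binding. Both genes with a match were dim in both pools.
Trib3 promoter, GRCr8 chr3:161275484-161275783 (- strand): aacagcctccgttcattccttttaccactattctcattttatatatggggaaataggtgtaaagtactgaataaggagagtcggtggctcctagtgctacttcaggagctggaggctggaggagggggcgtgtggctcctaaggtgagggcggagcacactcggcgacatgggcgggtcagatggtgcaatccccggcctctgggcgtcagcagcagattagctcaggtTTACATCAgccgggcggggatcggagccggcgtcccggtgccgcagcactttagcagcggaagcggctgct
Chac1 promoter, GRCr8 chr3:126795881-126796180 (+ strand): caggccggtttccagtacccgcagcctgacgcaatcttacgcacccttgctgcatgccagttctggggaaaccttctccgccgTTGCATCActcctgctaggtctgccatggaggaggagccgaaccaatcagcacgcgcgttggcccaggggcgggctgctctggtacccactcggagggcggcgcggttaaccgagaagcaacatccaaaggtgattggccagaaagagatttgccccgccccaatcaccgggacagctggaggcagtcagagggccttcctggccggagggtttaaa

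Other genes of the pathway were set beside the members in 8 lists that held 97 measured genes. Of these, 0 were higher and 0 were lower at the thresholds of the study, beside 0.375% and 1.42% of all measured genes. At 1.5-fold the counts were also 0 and 0, beside 1.3% and 5.48%. The lists left out the cystine transporter Slc7a11, a target of ATF4 and of NRF2 and the partner of Slc3a2, which was past the thresholds at a log2 ratio of 1.46 (486 in the DMA pool, 176 in the control pool), so the counts of 0 hold for the listed genes alone. Over the 97 genes the log2 ratios had a median of -0.01 with quartiles of -0.12 and 0.11. Upstream of ATF4, the 9 measured genes for eIF2alpha, its kinases, regulators of these and a phosphatase subunit had a median of 0.04, from -0.25 to 0.17. The largest absolute ratios among them were those of Impact (-0.25), an inhibitor of the kinase GCN2, of Eif2ak2 (0.17), the kinase PKR, and of Ppp1r15b (0.16), a phosphatase subunit. The 11 bZIP partners and relatives of ATF4 had the lowest median of the 8 lists at -0.12. Of them 8 were below 0, as were 6902 of all 11718 measured genes. Cebpd, a C/EBP factor of inflammation, gave 484 in the DMA pool and 682 in the control pool (-0.49). The bZIP repressor Jdp2 gave 77.7 and 106 in the same order (-0.45), and Atf2 was at -0.31. Jdp2 reached the signal minimum in the control pool alone.

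The medians of the downstream lists lay near 0. The 10 other measured ATF4 targets in the list, which does not hold Slc7a11, had a median of 0.06. Above 0 were 6 of them, beside 41.1% of all measured genes. Among the 10 were Aldh18a1, the first enzyme of proline synthesis (-0.42), Slc3a2, the heavy chain of amino acid transporters (0.26), and Cth, which makes cysteine from cystathionine (-0.24). The 12 measured genes of folate-bound carbon units and of serine or glycine metabolism had a median of 0.03, with Mthfd1l, which yields formate in mitochondria (0.29), Sfxn1, the mitochondrial serine carrier (-0.27), and Mtr, the methionine synthase (0.22), at the ends. The 18 cytosolic aminoacyl-tRNA synthetases had a median of 0.04, and 12 were above 0, beside 41.1% of all measured genes. The synthetases were led by Sars1 (0.28), which loads serine, by Wars1 (0.23) and by Cars1 (0.19).

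The branches of the unfolded protein response that run through ATF6 and XBP1 had 15 of 19 measured genes below 0. Over all 11718 measured genes 6902 were below 0. The median of the 19 was -0.08, against -0.04 over all measured genes, and both medians were 0.04 after quantile normalization. The lowest of the 19 were the translocon subunit Sec61b (-0.39), the chaperone Calr (-0.27) and Sel1l (-0.27), which acts in disposal of misfolded protein. The 14 mTORC1 regulators had a median of 0.01, with the inhibitor Deptor (-0.51), the p53 target Sesn1 (-0.41) and the kinase Mtor (0.16) as the largest absolute ratios. Of 4 measured relatives of Chac1 and Trib3, Chac2 was at 0.23, Ggct at -0.21 and Trib2 at 0.14. Trib2 reached the signal minimum in the DMA pool alone. A further 20 genes of these lists stayed under the signal minimum, with signals from 24.5 to 97.8 and log2 ratios from -0.36 to 0.49.

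**Figure D3:**
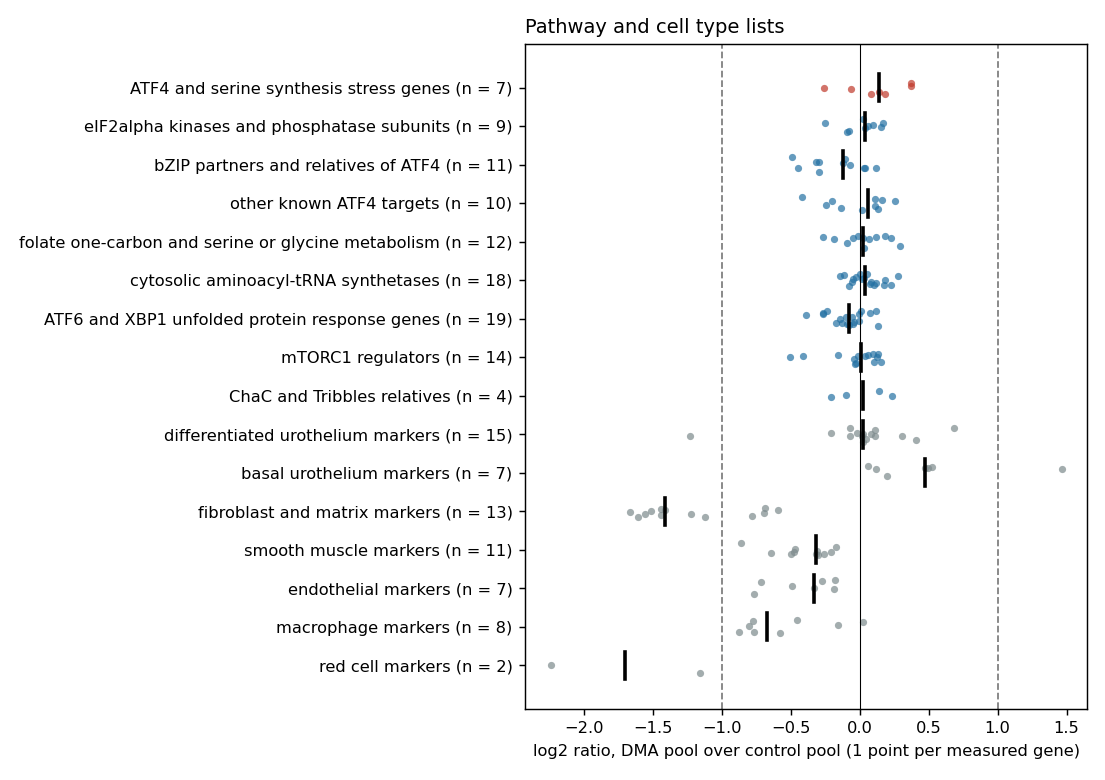
Log2 ratio of the DMA pool over the control pool (x axis) for every measured gene of each list, 1 point per gene, with list medians as black bars, 2-fold as dashed lines and n as the number of measured genes. The ATF4 genes (red, median 0.14) and the pathway lists (blue, medians from -0.12 to 0.06) all lie inside 2-fold, whereas fibroblast and red cell markers (grey, medians -1.42 and -1.70) lie far to the left.

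The pools also differed in cell type markers. Uroplakins of the urothelium were bright in both pools, Upk2 at 561252 in the DMA pool and 544597 in the control pool, and Upk1a at 478998 and 470635 in the same order. The 15 markers of differentiated urothelium had a median log2 ratio of 0.03 and a summed signal of 2064730 in the DMA pool against 1960100 in the control pool. Of these, 0 were higher at the thresholds and 1 was lower, the umbrella cell keratin Krt20 at -1.23, while Krt18 was at 0.68. The 7 measured basal urothelium markers had a median of 0.47, all above 0, with Krt15 (0.06) and Itga6 (0.12) the brightest, and a summed signal of 105957 in the DMA pool against 96999 in the control pool. At the thresholds 1 was higher, the basal keratin Krt14 at 1.47, and 0 were lower. The basal list also named Krt5 and Trp63, which had no cluster with a single symbol, and Dsg3, which was under the signal minimum. Krt20, Krt18 and Krt14 stand outside the naming rule and were picked after their values were seen. All 13 fibroblast and matrix markers were below 0, with 9 lower at the thresholds and a median of -1.42, and their summed signal was 224519 in the DMA pool against 464586 in the control pool. Dcn was at -0.59 and Col1a1 at -1.51.

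Of the wall and blood markers, the 11 smooth muscle markers had a median of -0.32 (summed signal 573361 in the DMA pool, 742920 in the control pool), with Acta2 at -0.47 and Actg2 at -0.32. The 7 endothelial markers had a median of -0.33 (summed signal 5039 in the DMA pool, 6566 in the control pool), with Pecam1 at -0.33 and Eng at -0.49. The 8 macrophage markers had a median of -0.67 (summed signal 6542 in the DMA pool, 8519 in the control pool), with C1qa at 0.03 and Csf1r at -0.88. Both measured red cell markers were lower at the thresholds (summed signal 18964 in the DMA pool, 89396 in the control pool), Hba-a1 at -2.24 and Hbb at -1.16. Of all measured genes 1.42% were lower at the thresholds. Hbb reached the signal minimum in the control pool alone. In bulk RNA, fewer cells of a type and less RNA per cell cannot be told apart. The part of cell makeup in the ratios of the 10 genes was not tested.

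**Figure D4:**
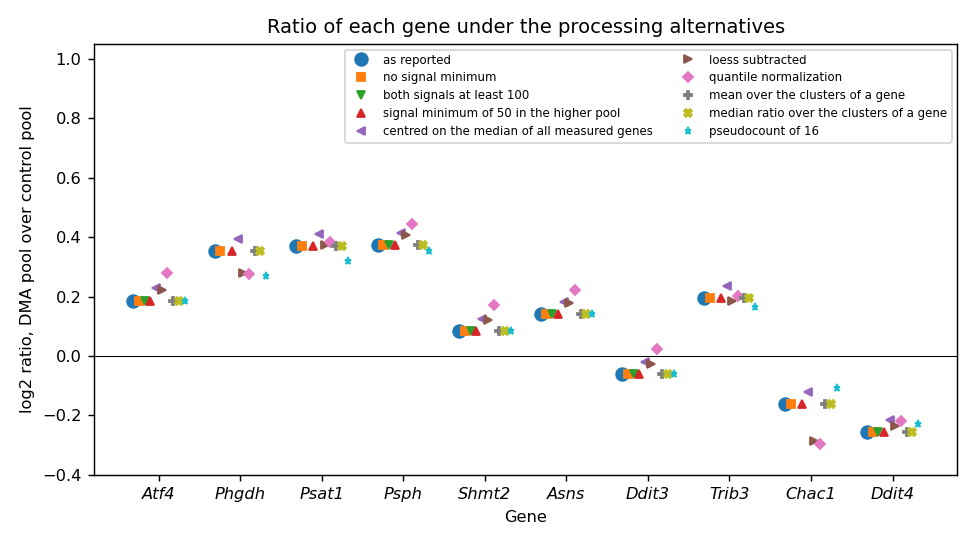
Log2 ratio of the DMA pool over the control pool for each gene as reported (large circles) and under up to 9 alternative settings (small symbols). Only Ddit3 has a point on the other side of 0, at 0.02 after quantile normalization, and Chac1 has the widest spread, from -0.30 to -0.11.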

How the data were processed

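The file holds 1 linear signal intensity per transcript cluster and pool, deposited as the authors made it with RMA in Affymetrix Expression Console 1.4.1, as the labels name it. The labelling was done with a whole-transcript kit, and the array that the methods name differs from the one in the file. The genome build behind the clusters of the array is not given in the sources used here. The log2 of 100% of values had 6 decimals within 1e-08, so log2 was taken of them. Of 68842 clusters, 23446 had 1 symbol in the platform annotation, 505 several and 44891 none. Current symbols were looked up through gene identifiers and found for 22077 of the clusters with 1 symbol, whether or not the symbol changed. The brightest cluster stood for a gene. The study's global median scaling and removal of signals under 100 had not been applied to the file. The members and lists were chosen with earlier results of these data known. Named were all members, the 3 largest absolute ratios of each pathway list and the 2 brightest markers of each cell type list. Genes of like pattern were not sought, since 2 arrays give none. The number of arrays limits the precision. Steps were tested on simulated data and run in Python 3.11.15 with statsmodels 0.14.6. Alternatives covered the signal minimum, scaling, cluster choice, a pseudocount of 16 and the Z score.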

Additional observations from a re-analysis of the deposited data

How the results depend on the processing

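No test could be made with 1 array per group, and no paired analysis was possible because the groups hold 1 sample each. Under the 9 alternatives of scaling, signal minimum, cluster choice and pseudocount, the median of the measured members stayed between 0.11 and 0.22, and 0 members passed the thresholds under any of 12 settings. Only Ddit3 changed sign, to 0.02 after quantile normalization. That setting also moved the median of all measured genes, from -0.04 to 0.04, so Ddit3 stayed below it. Chac1 was at -0.29 with loess and -0.30 with quantile normalization.

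With no signal minimum the medians were 0.14 for relatives of Chac1 and Trib3, -0.52 for macrophage and -0.87 for red cell markers. A minimum of 50 gave -0.52 and -1.16 for the same marker lists. When both signals had to reach 100, the relatives of Chac1 and Trib3 were at -0.10, red cell markers at -2.24 (1 gene), and 19 genes were higher at the thresholds in place of 44. These shifts follow the genes that enter each list. Differentiated urothelium was at 0.17 with loess and 0.19 with quantile normalization, which also put the ATF6 and XBP1 list at 0.038. The median of all measured genes was 0.037 with quantile normalization and -0.005 with loess, against -0.041 as reported. The cause of the shifts of these lists was not tested.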

Other observations

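Some genes outside the naming rule, chosen for high ratios after their values were seen, gave higher ratios than the members in the same pathway. Slc7a11, at a log2 ratio of 1.46, had a Z score of 5.10. Mthfd2, the mitochondrial enzyme that acts next to Shmt2, gave 64.6 in the DMA pool and 46.1 in the control pool (0.49), and Gdf15, a secreted stress factor, gave 61.0 in the DMA pool and 45.8 in the control pool (0.42). Mthfd2 and Gdf15 were under the signal minimum of 100 in both pools. Around Phgdh, which is of like signal, the middle 95% of the 500 nearest genes reached 0.51. The dim genes of the lists ran from -0.36 (Aldh1l2) to 0.49 (Mthfd2). Deptor (-0.51) and Cebpd (-0.49) were the lowest measured genes of the lists.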
